A study of Sus scrofa with 18 samples.

Results

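ssc-miR-142-5p, ssc-miR-142-3p and ssc-miR-150 are the miRNAs of white blood cells that were measured in the backfat of 18 Italian Large White pigs. They were taken from the deposited table by name, as every mature miRNA called ssc-miR-142, ssc-miR-150 or ssc-miR-223 with or without an arm, which gave 3 of the 240 mature miRNAs and 224 of the 16636 distinct read sequences. miR-223 was not analysed here. The pigs formed 2 classes of backfat deposition. The high class held 5 castrated males and 4 females, and the low class 4 castrated males and 5 females. All animals weighed 150 to 160 kg at an age of 233 to 250 days and shared 1 environment and diet. Backfat was sampled in a slaughterhouse, and small RNA was sequenced as single reads of 100 bases. Entire males were not part of the series, so castration and sex cannot be told apart in a comparison of castrated males with females.

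A miRNA is cut from a hairpin precursor whose 2 arms each can yield a mature strand, named 5p and 3p, and it finds its targets mainly through the seed, bases 2 to 8 counted from its 5′ end. A change of the 5′ end by even 1 base gives another seed and with it another set of possible targets, whereas a change of the 3′ end leaves the seed as it is. miR-142 is found in nearly all blood-forming cells and is widely used as their marker. miR-150 is abundant in mature B and T lymphocytes, where it represses the transcription factor MYB, while miR-223 marks granulocytes and other myeloid cells. Fat holds resident macrophages and lymphocytes as well as the blood in its vessels, so all of these cells can give such RNA. In the Sscrofa11.1 annotation MIR142 lies within 10000 bases of TSPOAP1.

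The sequences that carry the results are the annotated forms and the most abundant form of each 5′ start with at least 1% of a miRNA's counts. They are given as the deposited table lists them, 5′ to 3′ with T for U, and the capitals mark the seed.
miR-142-5p, annotated: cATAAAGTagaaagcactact
miR-142-5p, 5′ start 2 bases earlier: cCCATAAAgtagaaagcact
miR-142-3p, annotated: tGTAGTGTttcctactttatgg
miR-142-3p, annotated start, 3′ end 1 base longer: tGTAGTGTttcctactttatgga
miR-142-3p, 5′ start 1 base later: gTAGTGTTtcctactttatgga
miR-142-3p, 5′ start 3 bases later: aGTGTTTCctactttatggatg
miR-150, annotated: tCTCCCAAcccttgtaccagtg
The early start of miR-142-5p carries the seed CCATAAA in place of ATAAAGT, and the late start of miR-142-3p carries GTGTTTC in place of GTAGTGT. None of the 225 annotated mature sequences compared, from the same table, has either shifted seed, or the seed TAGTGTT of the start 1 base later. The seed of each annotated form was likewise found in no other annotated miRNA of the table.

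The libraries held 9601510 to 34588252 counts over distinct sequences, and no library repeated another. No sequence listed once had a count between 0 and 10, so a 0 stands for fewer than 10 reads. Library codes in the labels fall into 4 runs of consecutive numbers, U966 to U969, U074 to U077, U134 to U139 and AC485 to AC488. The labels do not say whether a run was handled together, but each run holds both classes, so values are also given within runs. Markers of fat and its stroma were abundant, with miR-143-3p at an average of 194101 CPM (counts per 1000000 after TMM scaling). The 4 red blood cell miRNAs summed to 3178 to 6763 CPM in high-backfat libraries and 2676 to 10474 CPM in low-backfat libraries, and so were detected in every library. In CPM, high replicate 6, a female, had the lowest miR-142-5p and miR-142-3p and the highest miR-150 of all libraries. High replicate 1, a castrated male, had the highest CPM of both miR-142 arms. For miR-142-5p this depended on the scaling. As a percent of library counts, it was lowest in high replicate 2 (0.0778%) and highest in low replicate 9 (0.277%).

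All 3 miRNAs had counts in each of the 18 libraries. miR-142-5p was the 45th most abundant of 221 tested miRNAs by mean CPM, and miR-150 the 76th, while miR-142-3p ranked below the middle of the table. Their averages were 1468, 339 and 53.0 CPM in that order. They varied more between animals than most miRNAs. The coefficient of variation was 39.3% for miR-142-5p, 48.4% for miR-142-3p and 37.3% for miR-150, whereas the median over the 175 miRNAs with a mean of at least 10 CPM was 23.7%. Of those 175, 29 varied more than miR-142-5p, 16 more than miR-142-3p and 32 more than miR-150.

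None of the 3 passed the test between backfat classes. miR-142-5p had 616 CPM at the lowest, 1464 at the median and 2787 at the highest in the high class, against 994, 1191 and 2752 CPM in the low class. The classes overlapped over most of their range, although 7 of 9 high-backfat libraries lay above the low-class median. miR-142-3p had 12.1, 52.3 and 124 CPM in the high class, against 26.8, 48.8 and 92.8 CPM in the low class. Its lowest and its highest value both belonged to the high class. miR-150 had 188, 285 and 623 CPM in the high class, against 192, 329 and 448 CPM in the low class. Only 3 of 9 high-backfat libraries exceeded the low-class median of miR-150, while the high-class mean of 361 ± 158 CPM was above the low-class mean of 318 ± 90.4 CPM (SD, 9 libraries each).

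Tested with edgeR (quasi-likelihood, with sex as a term in the model), the log2 fold change of high over low was -0.037 ± 0.23 for miR-142-5p (SE, Benjamini-Hochberg adjusted p = 0.930), 0.035 ± 0.30 for miR-142-3p (adjusted p = 0.935) and 0.21 ± 0.23 for miR-150 (adjusted p = 0.604). Over all miRNAs, 8 of 221 (3.62%) passed, 54 (24.4%) had an unadjusted p under 0.05, and the median log2 fold change was -0.034. The number that passed depended on the setting, with 22 of 220 (10%) in DESeq2, 1 of 221 with the size factors of DESeq2 in edgeR, and 0 with age as covariate, with limma or without the libraries AC485 to AC488 (42, 59 and 31 at an unadjusted p under 0.05). The sign for miR-142-5p depended on the setting and was positive in 5 of the 11 other settings. With SEs of this size, differences of the order of the SE could not have been detected, and larger ones could also be missed. Between the same classes, miR-146b with a log2 fold change of 1.17 ± 0.35 did not pass (edgeR adjusted p = 0.0705). In bulk tissue, fewer white blood cells and less of the miRNA per cell cannot be told apart. Within castrated males the log2 fold changes were 0.20 ± 0.31, 0.17 ± 0.43 and 0.33 ± 0.34 for miR-142-5p, miR-142-3p and miR-150, and within females -0.28 ± 0.31, -0.096 ± 0.43 and 0.098 ± 0.33. None passed (lowest adjusted p = 0.542, edgeR), where 9 of 221 miRNAs (4.07%) passed in castrated males and 0 of 221 (0%) in females. At an unadjusted p under 0.05 there were 49 (22.2%) in castrated males and 20 (9.05%) in females. The difference of the class effect between castrated males and females passed for none of the 3 (lowest edgeR adjusted p = 0.781), as for none of all 221 miRNAs (0%), of which 25 (11.3%) had an unadjusted p under 0.05.

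**Figure D1:**
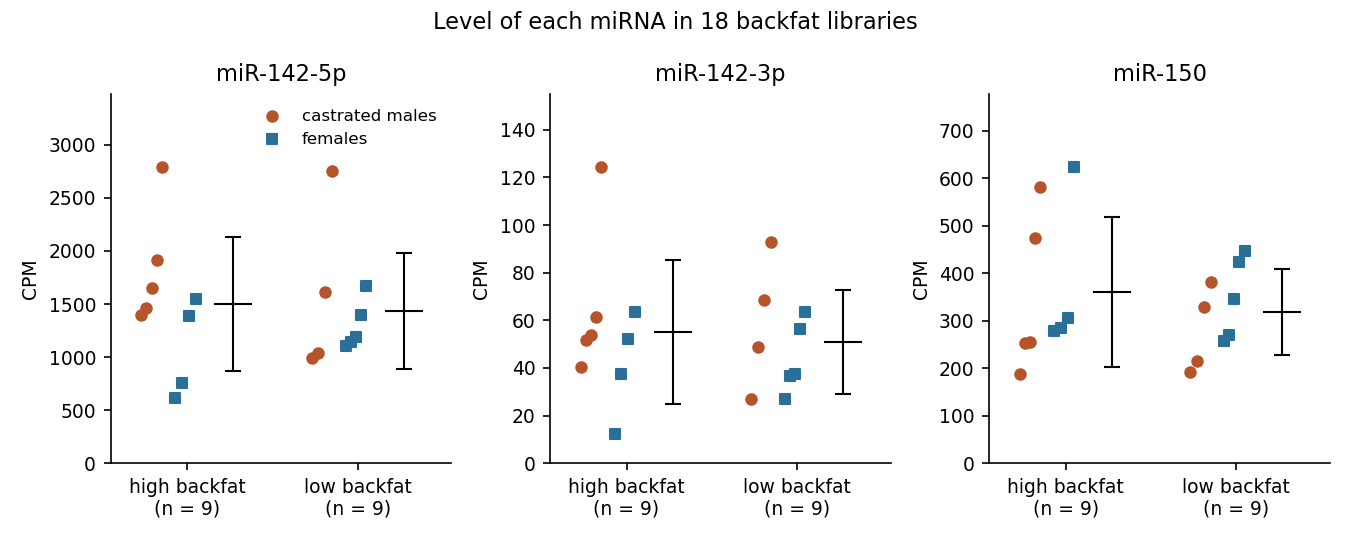
Level of miR-142-5p, miR-142-3p and miR-150 in CPM (y axis, from 0) in each of 9 high-backfat and 9 low-backfat libraries. Circles are castrated males and squares females, and the black lines give the mean ± SD of each class. The classes overlap for all 3 miRNAs, and the 2 highest miR-142-5p values, 2787 and 2752 CPM, belong to castrated males.

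Both miR-142 arms had higher averages in castrated males than in females, and miR-150 had a lower one, but none passed adjustment over all miRNAs. miR-142-5p ran from 994 over a median of 1609 to 2787 CPM in castrated males and from 616 over 1191 to 1673 CPM in females, with 7 of 9 castrated males above the female median. Its means were 1734 ± 654 CPM in castrated males and 1202 ± 348 CPM in females (SD over 9 libraries each), and the log2 fold change was 0.54 ± 0.23 (edgeR, unadjusted p = 0.0285, adjusted p = 0.573). miR-142-3p averaged 63.2 ± 29.4 CPM in castrated males and 42.9 ± 17.5 CPM in females, with 8 of 9 castrated males above the female median and a log2 fold change of 0.55 ± 0.30 (edgeR adjusted p = 0.626). miR-150 averaged 319 ± 136.9 CPM in castrated males and 360 ± 120 CPM in females, a log2 fold change of -0.21 ± 0.23 (edgeR adjusted p = 0.783). No miRNA of 221 (0%) passed this comparison in edgeR and none in DESeq2, and 17 (7.69%) had an unadjusted p under 0.05 in edgeR. Within the runs of library codes, mean log2 CPM of miR-142-5p differed between castrated males and females by 0.57 in U966 to U969, -0.038 in U074 to U077, 0.47 in U134 to U139 and 0.83 in AC485 to AC488. The run AC485 to AC488 held only 1 female. The 4 red blood cell miRNAs were also all positive in this comparison with none passing (median log2 fold change 0.34), and they summed to 3174 to 10474 CPM in castrated males and 2676 to 5272 CPM in females. Their part in the miR-142 values was not tested.

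The 5p arm of miR-142 held most of its reads. The ratio of 5p to 3p counts was 20.2 at the lowest, 27.0 at the median and 50.9 at the highest in high-backfat libraries, against 19.6, 29.7 and 42.6 in low-backfat libraries. In every library the 5p arm thus exceeded the 3p arm at least 19.6-fold, and the ratio varied 2.6-fold between libraries. The mean log2 ratio was 4.85 ± 0.43 in high-backfat libraries and 4.86 ± 0.39 in low-backfat libraries, a difference of -0.011 (exact two-sided permutation test over 48620 splits, p = 0.954). It was 4.82 ± 0.31 in castrated males and 4.89 ± 0.49 in females, a difference of -0.068 (exact permutation p = 0.724). When only exact matches to the annotated sequences were counted, the class difference in the log2 ratio was -0.45 (exact permutation p = 0.0307, adjusted p = 0.0615 over the 2 such tests), which did not pass. That ratio leaves out nearly all miR-142-3p counts, since exact matches made up 4.99% of them.

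Most reads of both miR-142 arms did not start where the annotation puts the 5′ end. Forms with a shifted 5′ end, and so another seed, made up 66.3% of all miR-142-5p counts and 64.5% of all miR-142-3p counts, but 0.066% of miR-150 counts. Among the 174 miRNAs with an exact form and a mean of at least 10 CPM, miR-142-5p had the 4th and miR-142-3p the 6th largest shifted share, and 10 miRNAs were over 50%. The median miRNA had 0.394%, and miR-150 ranked 114th. Both miR-142 arms thus stood near the top of the table and miR-150 below its middle.

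For miR-142-5p nearly all of the shift was a single start 2 bases before the annotated one, the start of cCCATAAAgtagaaagcact. It held 62.9% of the miRNA's counts at the lowest, 65.3% at the median and 78.9% at the highest in high-backfat libraries, against 55.7%, 61.9% and 73.2% in low-backfat libraries. The annotated start held 20.5% to 36.4% in the high class and 26.0% to 42.9% in the low class, so the early start led in every library. Starts 1 base before and 1 base after the annotated one held at most 0.152% and 1.34% of a library's miR-142-5p. The start went with the 3′ end. Of the counts with the early start, 70.9% ended 3 bases short of the annotated end, as the form of 20 bases printed above does. That share includes forms with a mismatch, and the printed form alone held 41.7% of all miR-142-5p counts. Another 20.3% of the early-start counts ended 1 base short of the annotated end. Of the counts with the annotated start, 77.7% ended at the annotated base.

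miR-142-3p had its main alternative start on the other side, 3 bases after the annotated one, in aGTGTTTCctactttatggatg. That start held 41.2%, 51.7% and 65.4% of the miRNA's counts (lowest, median and highest) in high-backfat libraries, against 49.4%, 64.1% and 74.8% in low-backfat libraries. The annotated start held 29.4% to 49.4% in the high class and 20.8% to 45.4% in the low class. The late start exceeded the annotated one in all libraries but high replicate 8, with 41.2% against 49.4%, and high replicate 6, with 45.0% at each. The start 1 base later held 1.90% to 9.97% in the high class and 2.39% to 8.98% in the low class. Here too start and end moved together. Of the counts with the late start, 99.1% ended 3 bases past the annotated end, and of the counts with the annotated start, 80.8% ended 1 base past it. The exact annotated form of miR-142-3p, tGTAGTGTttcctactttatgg, averaged 2.53 CPM and held 3.00% to 6.96% of the miRNA's counts in a library, while aGTGTTTCctactttatggatg averaged 27.6 CPM. The 3p shares rest on fewer reads than the 5p shares. In high replicate 6, which had 311 miR-142-3p counts, the shifted share of 55.0% has a 95% Wilson interval of 49.4% to 60.4%, and in high replicate 8, with 1991 counts, that of 50.6% has one of 48.4% to 52.8%. Such intervals cover counting error only.

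**Figure D2:**
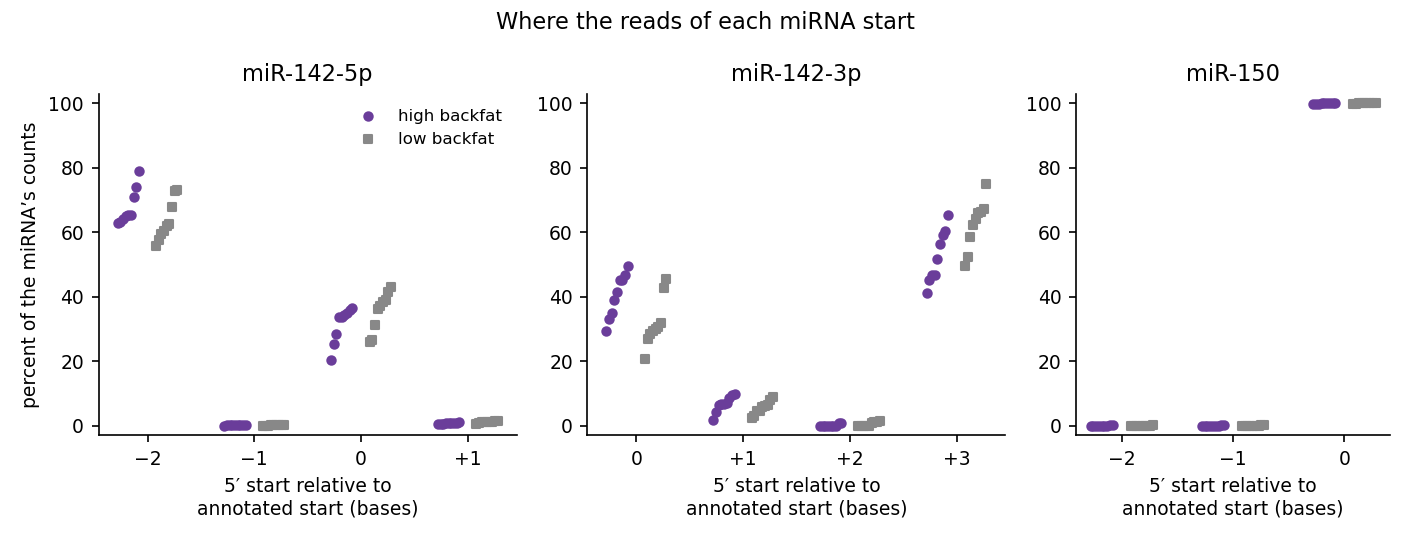
Percent of each miRNA's counts (y axis) by the 5′ start of the read relative to the annotated start in bases (x axis), with 1 point per library, purple circles for 9 high-backfat and grey squares for 9 low-backfat libraries, sorted within a group. miR-142-5p has most of its counts at -2 in every library, miR-142-3p has its largest share at 3 in all libraries but high replicates 6 and 8, and miR-150 at least 99.8% at the annotated start in every library.

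The shifted share of miR-142-3p had a lower mean in the high class, but the difference did not pass adjustment. The share was 50.6% at the lowest, 58.4% at the median and 70.6% at the highest in high-backfat libraries, against 54.6%, 70.1% and 79.2% in low-backfat libraries. The classes overlapped. The mean share was 59.5% ± 6.84 in high-backfat libraries and 68.2% ± 7.67 in low-backfat libraries (SD over 9 each), a difference of -8.72 percentage points (exact two-sided permutation test, unadjusted p = 0.0237, adjusted p = 0.142 over 6 tests). The difference lay between -10.4 and -7.35 points when each library was left out in turn, and only without low replicate 8, at -10.4 points, did the adjusted p of 0.0397 pass. Within the runs of library codes the difference was 3.30 points in U966 to U969, -5.03 in U074 to U077, -16.6 in U134 to U139 and -10.6 in AC485 to AC488, the last with 1 high-backfat library. It was thus of the other sign in 1 of the 4 runs. Within castrated males it was -11.2 points (exact permutation p = 0.103) and within females -6.45 points (exact permutation p = 0.183), with 126 splits each.

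For miR-142-5p the shifted share was 68.5% ± 5.49 in high-backfat libraries and 64.6% ± 6.13 in low-backfat libraries, a difference of 3.94 points (exact permutation p = 0.169, adjusted p = 0.507). Within runs it was -3.58 points in U966 to U969, 11.1 in U074 to U077, -0.29 in U134 to U139 and 2.90 in AC485 to AC488, so the sign differed between runs. Between castrated males and females the shares differed by -0.67 points for miR-142-5p and by -0.22 points for miR-142-3p (exact permutation p = 0.822 and 0.957).

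**Figure D3:**
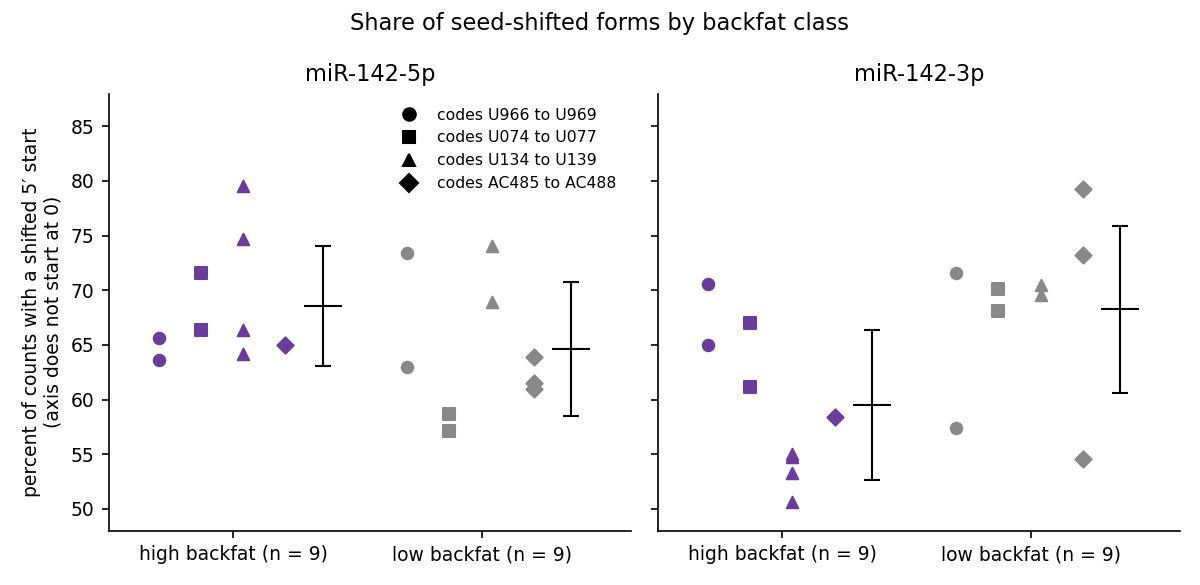
Percent of counts with a shifted 5′ start (y axis, not starting at 0) for miR-142-5p and miR-142-3p in 9 high-backfat (purple) and 9 low-backfat (grey) libraries. The marker gives the run of library codes, and the black lines the mean ± SD. For miR-142-3p the class means are 59.5% and 68.2%, and the 4 high-backfat libraries coded U134 to U139 lie below the 2 low-backfat libraries of that run.

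The arm ratio and the 5′ start of miR-142-5p varied together across libraries. The higher the log2 ratio of 5p to 3p counts, the larger was the share of miR-142-5p with a shifted start (Pearson's r = 0.707, permutation test, p = 0.00109, adjusted p = 0.00545 over 5 relations; Spearman's rho = 0.643, adjusted p = 0.0261; 18 libraries). The relation was chosen after values of these libraries were seen. It held at r = 0.716 without the 2 libraries farthest from the median ratio, at r = 0.756 within the high and 0.764 within the low class, and at r = 0.941 within the 6 libraries coded U134 to U139. Both measures share the miR-142-5p counts of a library, so they are not independent. The other 4 relations, between the shifted shares of both arms, between the arm ratio and the 3p share, and between the 3p share and the level of each arm, did not pass (adjusted p of r 0.0539 to 0.240). The first of these had r = -0.471 (adjusted p = 0.0594).

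**Figure D4:**
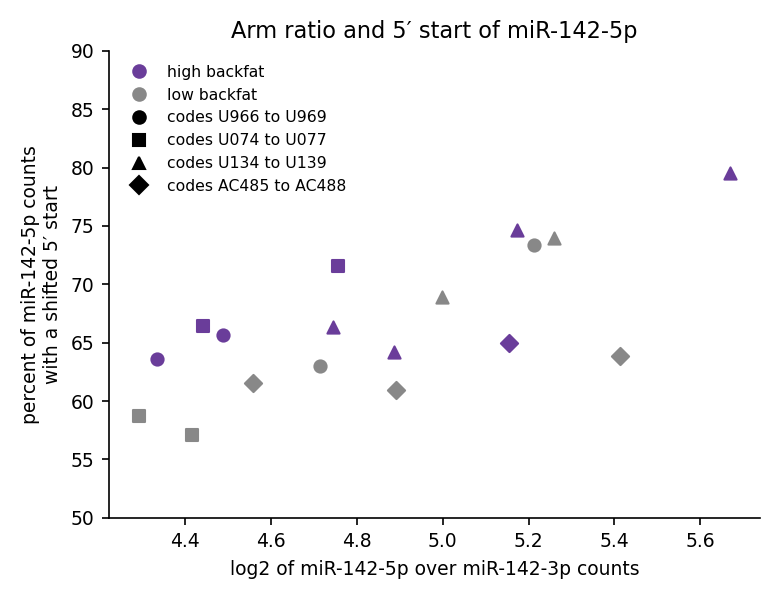
Percent of miR-142-5p counts with a shifted 5′ start (y axis) against the log2 ratio of miR-142-5p to miR-142-3p counts (x axis) in 18 libraries, purple for high and grey for low backfat, with the run of library codes as marker. The points rise together, with r = 0.707, and high replicate 6 has the highest ratio, 50.9, and the largest share, 79.5%.

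The 2 arms of miR-142 rose and fell together from animal to animal, and miR-150 did not follow them. On log2 CPM, miR-142-5p and miR-142-3p had r = 0.853 (permutation test with 100000 resamples, adjusted p = 0.000120 over 3 pairs) and rho = 0.771 (adjusted p = 0.00123). Without high replicates 1 and 6, which lie farthest from the median of miR-142-5p, r was 0.712. It was 0.892 within the high class, 0.772 within the low class and 0.979 within the 6 libraries coded U134 to U139. The other runs hold 4 libraries each, too few for a correlation.

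miR-150 had r = -0.326 with miR-142-5p and -0.349 with miR-142-3p (adjusted permutation p = 0.189 for both), with rho of -0.327 and -0.282. These values depended on the scaling and on single libraries. Without TMM scaling, r was -0.155 with miR-142-5p and -0.204 with miR-142-3p, and rho was -0.158 and -0.024. With TMM scaling but without high replicate 1, the r values were -0.535 and -0.565 and passed (adjusted p = 0.0273 and 0.0268). Without high replicate 6 they were -0.105 and -0.0556. Within the low class r was -0.728 for miR-142-5p (adjusted p = 0.0300) and -0.658 for miR-142-3p (adjusted p = 0.0571), and within the high class -0.128 and -0.202. The difference between the classes was not tested.

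**Figure D5:**
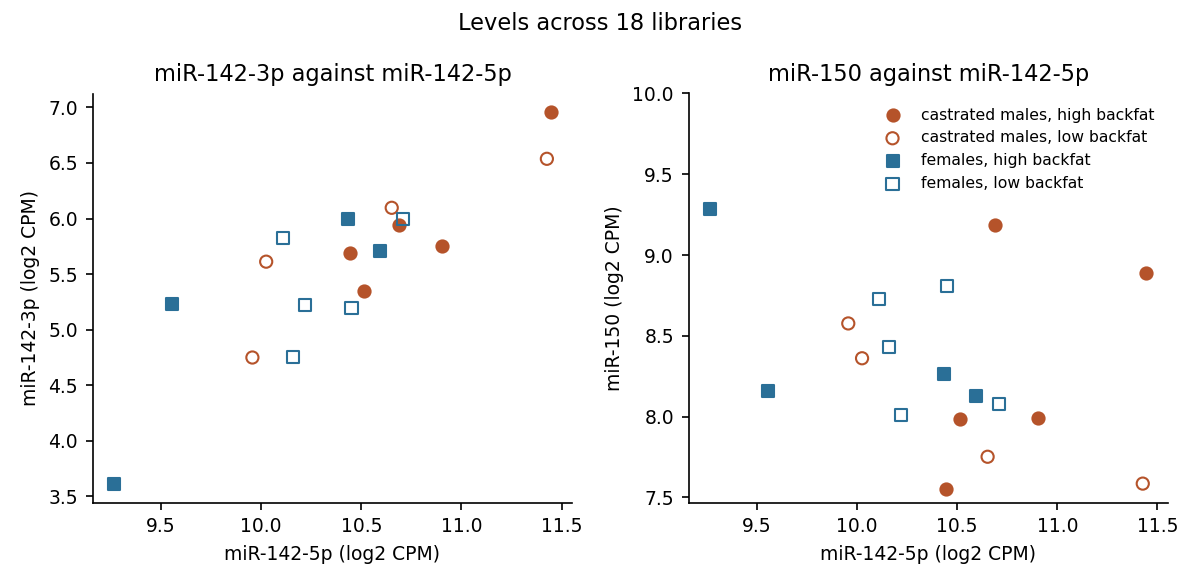
Levels of miR-142-3p (left) and miR-150 (right) against miR-142-5p, all in log2 CPM, in 18 libraries. Circles are castrated males and squares females, filled for high and open for low backfat. miR-142-3p follows miR-142-5p (r = 0.853), and miR-150 does not (r = -0.326).

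Among 9 comparison miRNAs that mark other cell types or inflammation, those whose r with both miR-142 arms passed adjustment were miR-21, miR-146a-5p and miR-146b. miR-146a-5p and miR-146b restrain inflammatory signalling through TRAF6 and IRAK1, and miR-21 is induced in macrophages and in fibrotic tissue. miR-142-5p had r = 0.726 with miR-21, 0.704 with miR-146a-5p and 0.592 with miR-146b (adjusted permutation p = 0.00837, 0.00837 and 0.0441 over 27 relations). miR-142-3p had r = 0.821 with miR-21, 0.594 with miR-146a-5p and 0.597 with miR-146b (adjusted p = 0.00243, 0.0441 and 0.0441). These relations passed for r and not for rho, whose lowest adjusted p was 0.0665. They also rested in part on outlying libraries. For each comparison miRNA, r was taken without the 2 libraries farthest from its own median, which need not be the same animals. For miR-21 it was then 0.406 for miR-142-5p and 0.472 for miR-142-3p. For miR-146a-5p it was 0.638 for miR-142-5p and 0.302 for miR-142-3p. For miR-146b it was 0.392 and 0.490 in the same order. Other miRNAs of immune cells and inflammation were not among the 9, and their relations were not tested. Their rho with miR-142-5p was 0.362 for miR-155-5p, 0.218 for miR-24-3p and 0.199 for miR-29a. It was 0.024 for miR-132, -0.154 for miR-212 and -0.375 for miR-125b, so the inflammation miRNAs did not follow miR-142-5p as a set.

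The other comparison miRNAs did not pass. miR-451, of red blood cells, had r = 0.380 with miR-142-5p and -0.481 with miR-150 (adjusted permutation p = 0.275 and 0.113). Without the 2 libraries farthest from the median of miR-451, its r with miR-142-5p was 0.584. In the same setting miR-146a-5p had 0.638, miR-21 0.406 and miR-146b 0.392, so miR-451 lay above miR-21 and miR-146b. With miR-142-3p the value for miR-451 was 0.269. With class, sex and run of library codes removed from all libraries, miR-451 had r = 0.073 with miR-142-5p. miR-126-3p, of endothelium, had r = 0.402 with miR-142-5p and 0.522 with miR-142-3p (adjusted permutation p = 0.253 and 0.113). The other arm, miR-126-5p, was not among the comparison miRNAs, and its relations were not tested. With miR-142-3p it had r = 0.715, above miR-146a-5p (0.594) and miR-146b (0.597), and rho = 0.548. Its rho with miR-142-5p was 0.480. The values for endothelium thus depended on which arm of miR-126 was taken. miR-133a-3p, of skeletal muscle, had r = -0.307 with miR-142-5p (adjusted permutation p = 0.395). miR-150 had its most negative r with miR-146a-5p, at -0.556, and with miR-143-3p, at -0.546 (adjusted permutation p = 0.0606 for both).

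Ranked over all 220 other tested miRNAs by Spearman's rho, as a description, the most alike to miR-142-5p were miR-142-3p (0.771), miR-221-3p (0.699), miR-146a-5p (0.624), miR-21 (0.618) and miR-130b (0.610), and the least alike miR-143-5p (-0.804) and miR-331-3p (-0.719). For miR-142-3p they were miR-142-5p (0.771), miR-21 (0.631), miR-27a (0.585), miR-126-5p (0.548) and miR-221-3p (0.544), with miR-339-5p (-0.517) and miR-143-5p (-0.509) last. miR-150 kept other company. Its highest rho was with miR-532-3p (0.746), miR-331-3p (0.688), miR-92a (0.680), miR-328 (0.618) and miR-504 (0.613), and its lowest with miR-30e-5p (-0.775) and miR-148b-3p (-0.748). miR-331-3p was thus near the top of the ranking for miR-150 and near the bottom for miR-142-5p. miR-150 held place 179 of 220 in the ranking for miR-142-5p and place 194 in that for miR-142-3p. All these values share the same libraries and the same scaling.

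miR-150 varied at its 3′ end instead of its 5′ end. The annotated form held 53.1% of its counts. A pair of longer forms is shown because their last base is not the one that continues the precursor in the forms without mismatch. The capital marks that base.
miR-150, 1 base longer with A: tctcccaacccttgtaccagtgA
miR-150, 1 base longer with T: tctcccaacccttgtaccagtgT
The form with A differs from the precursor by C23A and that with T by C23T, counting from 1 at the 5′ end of the read. The form with A held 13.1% of the counts and that with T 9.55%, while the form with G held 1.90% and the form that continues the precursor 0.722%. A form 1 base shorter than the annotated one held 12.5%. In each library the form with A held 11.2% to 15.3% in the high class and 11.4% to 17.8% in the low class, so it was found in every library. The mean share with A was 13.0% ± 1.53 in high-backfat libraries and 14.1% ± 2.18 in low-backfat libraries (SD over 9 each, exact permutation p = 0.224), and that with T was 9.13% ± 0.95 in high-backfat libraries and 10.1% ± 0.98 in low-backfat libraries (exact permutation p = 0.0512). Neither passed adjustment over 10 tests of tails and mismatches that were chosen after values of these libraries were seen (adjusted p = 0.583 and 0.512).

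Mismatches at the 3′ last base or bases made up 25.5% of miR-150 counts on average, against 5.38% for miR-142-3p and 3.00% for miR-142-5p. Mismatches inside the read behaved differently: they sat at a few read bases and varied strongly by library. Forms with 1 mismatch at read base 3 held 0.575% to 5.41% of miR-142-5p counts, 0% to 11.9% of miR-142-3p counts and 0.469% to 8.37% of miR-150 counts. The highest value of both miR-142-3p and miR-150 was that of high replicate 1. At read base 6 the share was 0.0304% to 7.13% for miR-142-5p, the largest internal mismatch of this miRNA on average (3.12%), against at most 0.4655% for miR-150 and 0% for miR-142-3p. It averaged 1.70% ± 2.13 of miR-142-5p counts in castrated males and 4.54% ± 2.41 in females (SD over 9 libraries each), a difference that was not tested. Castrated males and females were spread unevenly over the runs of library codes. AC485 to AC488 held 3 castrated males and 1 female, and U134 to U139 held 2 castrated males and 4 females. A share of 0% for miR-142-3p does not show absence, because forms with fewer than 10 reads are counted as 0. Such a form can be a larger share of miR-142-3p, with 311 to 1991 counts per library, than of miR-142-5p, with 13821 to 53407. At read base 7 the highest share of both miR-142-5p, 3.30%, and miR-150, 6.55%, was that of low replicate 9. The shares also differed between runs of library codes. In miR-142-5p, base 6 held 0.235% to 0.304% and base 7 held 2.81% to 3.30% in the 4 libraries AC485 to AC488, whereas in U134 to U139 base 6 held 1.06% to 4.66% and base 7 at most 0.448%. The table cannot tell sequencing errors from changes in the RNA, and their part in these forms was not tested. The share of counts with any mismatch did not differ between classes or between castrated males and females for any of the 3 miRNAs beyond the spread (lowest exact permutation p = 0.262, adjusted p = 0.583).

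Single sequence forms were also tested between backfat classes. Of the 224 forms of the 3 miRNAs, 71 passed the filter on low counts, and these held 98.3% of the counts. None of the 71 passed in edgeR, as none of all 6140 forms tested (0%), of which 467 (7.61%) had an unadjusted p under 0.05. Among the 71, 40 log2 fold changes were positive and 31 negative, with a median of 0.075. DESeq2 passed 3.18% of 4214 forms, and 1 of these belongs to the 3 miRNAs. It is the early-start form of miR-142-5p with A as its last base, T23A against the precursor:
miR-142-5p, early start, ending in A: cccataaagtagaaagcactacA
It had 3.70, 7.42 and 8.71 CPM (lowest, median and highest) in the high class, against 2.77, 4.09 and 6.16 CPM in the low class. The classes overlapped. Its mean was 6.61 ± 1.95 CPM in high-backfat libraries and 4.18 ± 1.11 CPM in low-backfat libraries (SD over 9 each), and the log2 fold change was 0.67 ± 0.19 in edgeR (unadjusted p = 0.00233, adjusted p = 0.300) and 0.67 ± 0.16 in DESeq2 (adjusted p = 0.00510). For the most abundant forms the log2 fold change was 0.089 ± 0.21 for cCCATAAAgtagaaagcact, -0.14 ± 0.28 for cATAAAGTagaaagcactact -0.10 ± 0.36 for aGTGTTTCctactttatggatg and 0.39 ± 0.34 for tCTCCCAAcccttgtaccagtg (lowest edgeR adjusted p = 0.9974). The form tGTAGTGTttcctactttatgga, with the annotated start of miR-142-3p, averaged 15.1 ± 6.23 CPM in high-backfat libraries and 11.2 ± 3.48 CPM in low-backfat libraries (edgeR log2 fold change 0.40 ± 0.26, adjusted p = 0.881).

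Of 10 other miRNAs of immune cells and inflammation, 9 were in the table (miR-342 was not analysed here). None of the 9 passed between backfat classes, with 4 positive and 5 negative log2 fold changes and a median of -0.025, and none passed between castrated males and females, with 7 positive and 2 negative and a median of 0.24. The median hides larger single values. miR-146b had a log2 fold change of 1.17 ± 0.35 between backfat classes (edgeR adjusted p = 0.0705) and of 1.13 ± 0.35 for castrated males over females (adjusted p = 0.434). miR-132 had 0.47 ± 0.15 between backfat classes (adjusted p = 0.0705). miR-155-5p, which is induced in activated macrophages and lymphocytes, had a log2 fold change of -0.034 ± 0.15 between backfat classes (edgeR adjusted p = 0.897) and of 0.31 ± 0.15 for castrated males over females (adjusted p = 0.598). Markers of fat and its stroma and of skeletal muscle had negative log2 fold changes between backfat classes. With TMM scaling, the one scaling used for these lists, all 4 of fat and stroma were negative (median -0.27), miR-143-3p at -0.031 being next to the median of all miRNAs, and miR-199a-5p passed (-0.38 ± 0.093, edgeR adjusted p = 0.0486). All 4 tested of skeletal muscle were negative with none passing (median -1.24). Their part in the values of the white blood cell miRNAs was not tested. Markers of other tissues were low. The liver miRNA miR-122 had 0 to 43.1 CPM, and the 6 skeletal muscle miRNAs summed to 48.3 to 131 CPM in high-backfat and 78.9 to 216 CPM in low-backfat libraries.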

How the data were processed

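The authors deposited raw read counts for each sequence form of each mature miRNA within its precursor, and a normalised signal equal to the count divided by 1 size factor per library, per the file headers and values. Per the submitters' processing notes the tools included Bowtie 0.12.7, HTSeq and DESeq2 1.4.5, and the build was Sscrofa10.2. Trimming and alignment settings were not given in the sources used here. No sequence of the 3 miRNAs is listed under more than 1 precursor. Elsewhere, sequences listed several times appear to have their counts split (smallest non-zero count 10 if listed once, 5 if listed under 2), and each was counted once per miRNA at its highest listed count. Summing all listings was an alternative. The tables hold 2 further value columns that were not used.

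Tests used R 4.3.3 with edgeR 4.0.16 (filterByExpr with minimum count 10, TMM, quasi-likelihood F test, Benjamini-Hochberg, threshold 0.05), with limma 3.58.1 and DESeq2 1.42.0 as alternatives, and SciPy 1.17.1, NumPy 2.4.6, pandas 2.3.3 and Matplotlib 3.10.9 under Python 3.11.15. Scripts were tested on simulated data. SE was derived from the F statistic. A prior count of 2 was added for log2 CPM. CPM of single forms uses the scaling of the summed miRNAs. Start positions are those of the deposited table. P-values compare a difference or a correlation with the variation between animals, which are the replicates. The miRNAs and lists were chosen with earlier results of these data known. Named forms were the annotated form, the 6 most abundant, the top form of each start with at least 1%, and the 2 lowest p in each direction. Named most alike miRNAs were the 5 highest and 2 lowest by rho.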

Additional observations from a re-analysis of the deposited data

Results flagged for a closer look

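Of 44 groups of levels and shares examined, 3 held a library far from its group, where chance alone marks about 1 in 20. miR-142-5p was at 2752 CPM in low replicate 9, a castrated male, and the next highest low-backfat library had 1673 CPM. miR-142-3p was at 124 CPM in high replicate 1, also a castrated male, and the next highest high-backfat library had 63.7 CPM. The share of miR-142-5p counts with a mismatch was 15.2% in low replicate 6, a female, and the next highest low-backfat library had 12.8%.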

How the results depend on the processing

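No paired analysis was possible because replicate numbers follow the order of the samples and pair no animals. The class log2 fold change of miR-142-5p became positive with limma on the deposited signal (0.049), with no sex term (0.065), with the run of library codes as covariate (0.074), with every listing summed (0.049) and on leaving out the 4 libraries AC485 to AC488 (0.13). Other sign changes were -0.051 for miR-150 in females with the run as covariate, 0.12 for the castrated minus female log2 arm ratio from exact matches, and, for the castrated minus female shifted share of miR-142-5p, 1.21 points with the run removed and 0.83 without AC485 to AC488 (both added after seeing the data). The causes were not tested. Calls gained were r = -0.73 for miR-142-5p and miR-150 within the low class and 1 member form in DESeq2. Forms called over the whole table numbered 5 with a mean of at least 10 CPM and were 3.18% of those tested in DESeq2, against 0 in edgeR. Over all settings that kept all libraries or left out a set, 100 values kept sign and call. Leaving out 1 library did so in 388 cases, changed the sign in 41 and gave a call in 3. Ranges with 1 library left out were, for class, -0.13 to 0.12 (miR-142-5p), -0.12 to 0.21 (miR-142-3p) and 0.062 to 0.29 (miR-150). For miR-150 in castrated males over females they were -0.33 to -0.027. They were 0.023 to 0.60 for miR-142-5p, -0.16 to 0.47 for miR-142-3p and 0.043 to 0.54 for miR-150 by class in castrated males, and in females -0.51 to -0.10 (miR-142-5p), -0.37 to 0.20 (miR-142-3p) and -0.30 to 0.21 (miR-150). For the difference between these they were 0.29 to 0.88 (miR-142-5p), -0.084 to 0.56 (miR-142-3p) and -0.047 to 0.65 (miR-150). For the log2 arm ratio they were -0.11 to 0.058 by class and -0.14 to 0.029 for castrated males minus females. For shifted shares they were -1.72 to 0.91 points (miR-142-5p) and -2.15 to 1.42 (miR-142-3p) for castrated males minus females, and -10.4 to -7.35 by class (miR-142-3p). For r with miR-150 they were -0.53 to -0.11 (miR-142-5p) and -0.56 to -0.056 (miR-142-3p). Taking starts from a hairpin match was not run, as no hairpin sequences were at hand. Depth limits miR-142-3p most, with 311 to 1991 counts per library.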
